A study of Mus musculus with 6 samples.

Results

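Trem2, Tyrobp, Apoe, Cst7, Lpl, Itgax, Clec7a, Spp1, Lgals3 and Cd63 are 10 genes that microglia of the diseased or aged brain are known to express at raised levels. They were chosen by their symbols, and all 10 had a row among the 17459 genes of the count table. Gene expression was measured by RNA sequencing of microglia, the resident macrophages of the brain, in 6 libraries from adult male C57BL/6J mice labelled as 8 weeks old. The 3 cKO libraries came from mice with both Mir137 alleles flanked by loxP sites (Mir137loxP/loxP), and the 3 cWT libraries from mice with intact alleles (Mir137+/+). Both genotypes carried Tmem119-CreERT2, a recombinase driven from the microglial gene Tmem119 and switched on by tamoxifen. From the series' design text, both genotypes were taken as injected for 7 consecutive days at 7 to 8 weeks of age. The labels of the single samples do not repeat this treatment. Cells that do not use the Tmem119 promoter keep Mir137 in such a model, and no group without the Cre allele or without tamoxifen was analysed here. The labels give 4 mice for the isolation without saying how they fall into replicates, so the p-values below reflect the variation among these 6 libraries alone, and that variation may be technical. The question of the comparison, from the series' own description, is what changes in adult microglia when miR-137 is lost.

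TREM2 is a lipid-sensing receptor of the microglial surface that has no signalling tail of its own and signals through the adaptor DAP12, the product of Tyrobp. Apolipoprotein E, a lipid carrier made by glia, is one of its ligands. In mouse models of amyloid disease, injury and ageing, microglia raise Tyrobp and Apoe in a first step and Trem2, Cst7, Lpl, Itgax, Clec7a and Spp1 in a later, TREM2-dependent step, while homeostatic genes fall.

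The deleted microRNA is shown with its seed, bases 2 to 8, in capitals, and below it the stretch of a member's 3′ UTR that matches the seed, with the match in capitals. The mature sequence is that of RefSeq for GRCm38.p6, at chr3:118433901-118433923 on the plus strand, and the site comes from the GENCODE annotation of GRCm38.
mmu-miR-137-3p: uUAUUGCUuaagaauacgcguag
Apoe 3′ UTR site: gtggttttgcAGCAATAgaaatgaagc
Of the 10 genes, 1 had the letters AGCAATA in its annotated 3′ UTR. That gene was Apoe, at position 225 of 271 bases, and the match was not followed by A. Over the annotation, 1624 of 15734 genes with a 3′ UTR (10.3%) had the same 7 letters. The other 9 genes had no match in the windows searched.

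In the comparison of cKO with cWT, 8 of the 10 genes were higher in cKO and 2, Lpl and Itgax, were lower (edgeR's quasi-likelihood test, adjusted p under 0.05). The values of the genotypes did not overlap in any of the 10. This count has to be read against the whole table, where 72.1% of 13490 tested genes were called, 35.6% higher and 36.5% lower. In 74.6% of tested genes the genotypes did not overlap, with cKO higher in 36.7% and lower in 37.9%. The median log2 fold change of the 10 genes was 0.99, against -0.02 over all tested genes. Levels are given as CPM, the estimated counts of a gene relative to its library's total after correction by TMM factors, and all fold changes are log2 ratios of cKO over cWT with their standard error (SE), from 3 libraries per genotype. In bulk samples such as these, fewer cells of a type and less RNA per cell cannot be told apart.

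**Figure D1:**
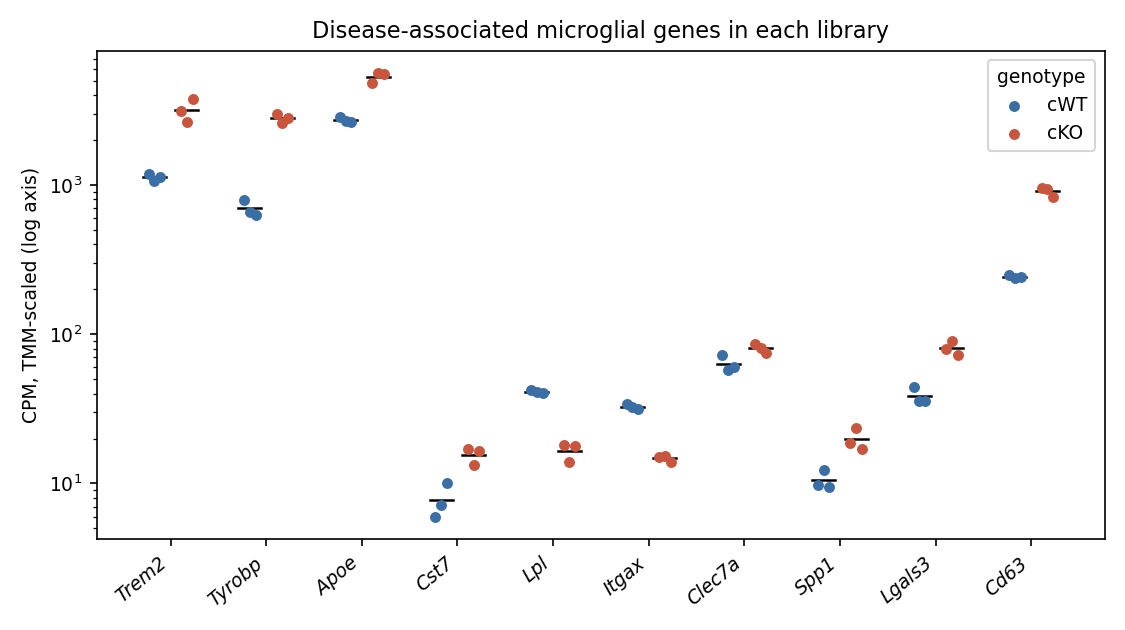
CPM of the 10 genes in each library on a log axis, with cWT in blue, cKO in red and a bar at the mean of 3 libraries. The cKO points lie above the cWT points for 8 genes and below them for Lpl and Itgax.

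Fold change followed transcript length over the table, and the 10 genes are mostly short. Their median annotated transcript was 1258.5 bases long, against 3000 over all tested genes with a length. When tested genes were ranked by length into 10 classes of equal size, the median log2 fold change went from 1.57 in the shortest class (171 to 1219 bases) to -1.45 in the longest. Trem2, Tyrobp, Cst7, Clec7a and Cd63 belong to that shortest class, in which 86.1% of genes were called higher. Apoe, Spp1 and Lgals3 belong to the next class (1220 to 1697 bases, median 0.98, 75.4% higher), and Lpl and Itgax to the seventh (3509 to 4143 bases, median -0.40, 51.2% lower). The class of Clec7a rests on its principal transcript of 707 bases. Its longest coding transcript, of 2277 bases, would fall in the class of 2109 to 2549 bases (median 0.28, 45.4% higher). Across all tested genes the Spearman correlation of fold change with length was -0.72, and across the 10 genes it was -0.64. Genes are not independent replicates, and the 10 values share the same 6 libraries. Each gene is therefore given below also from a second edgeR fit with offsets, which removes in each library a smooth trend of counts on transcript length and GC content. A value from that fit is a change relative to this trend. Higher or lower with the offsets is meant in this sense, and a negative value can go with a rise in CPM. In that fit the correlation over all genes was -0.06. Whether the trend with length arose in the cells or in the preparation of the libraries was not tested.

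With the offsets, 4 of the 10 genes were called higher in cKO (Trem2, Tyrobp, Apoe and Cd63) and 4 lower (Cst7, Lpl, Itgax and Clec7a). Over all genes this fit called 29.1% higher and 27.5% lower. Spp1 and Lgals3 did not pass the threshold in it, and the median of the 10 genes was -0.03.

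**Figure D2:**
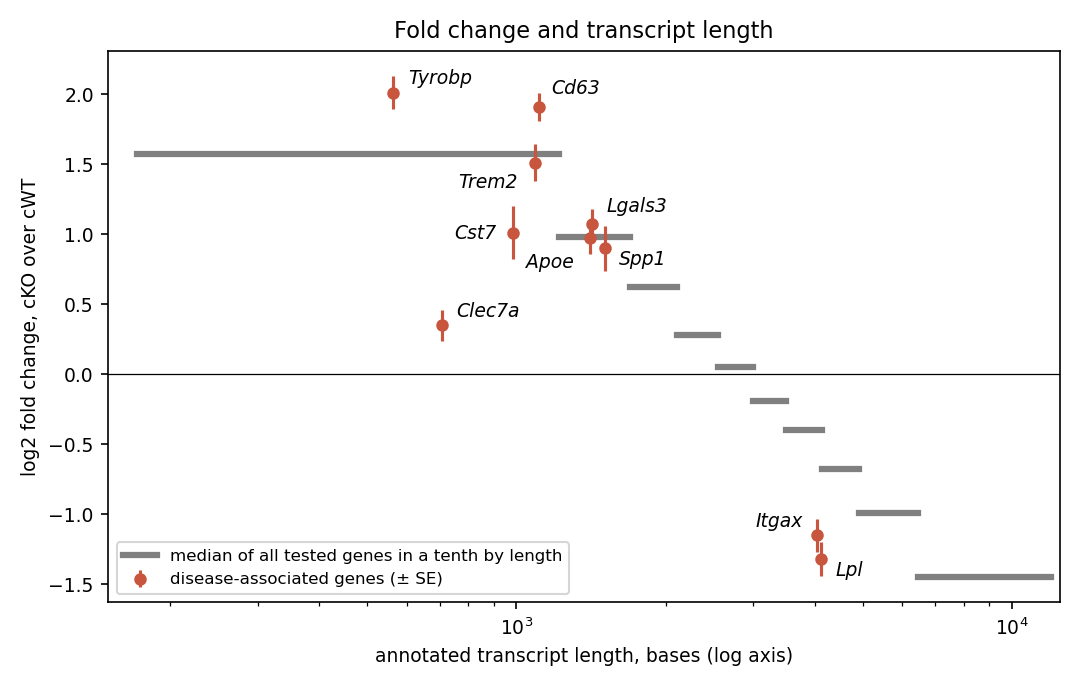
Log2 fold change (cKO over cWT) of the 10 genes (red, ± SE) against annotated transcript length on a log axis, with grey bars for the median of all tested genes in each of 10 length classes; the bar of the longest class is drawn only to the edge of the axis. Trem2, Apoe, Lgals3 and Spp1 lie near the median of their class, Tyrobp and Cd63 above it, and Cst7, Clec7a, Lpl and Itgax below it. Clec7a is placed by its principal transcript of 707 bases, and its longest coding transcript has 2277.

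Trem2 encodes the receptor itself (ENSMUSG00000023992, GRCm38, chr17:48346401-48354147, plus strand, 5 exons in its principal transcript of 1088 bases). In cWT libraries it stood at 1183, 1061 and 1125 CPM, and in cKO libraries at 3151, 2656 and 3789 CPM. Every cKO library was above every cWT library, and the cKO libraries were spread more widely (3199 ± 568.1, SD, n = 3) than the cWT libraries (1123 ± 60.97). The log2 fold change was 1.51 ± 0.13 (SE), or 2.85-fold, with an edgeR adjusted p of 5.985e-09. That is close to the median of 1.57 of its length class. With the offsets Trem2 remained higher in cKO, by 0.41 ± 0.09 (edgeR adjusted p = 0.000548).

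Tyrobp encodes DAP12, the adaptor that carries the TREM2 signal (ENSMUSG00000030579, chr7:30413760-30417585, plus strand, 564 bases). The cWT libraries held 796, 663 and 629 CPM. The cKO libraries held 2996, 2614 and 2813 CPM. The groups lay far apart, and the lowest cKO library was over 3 times the highest cWT library. Tyrobp had the highest fold change of the 10 genes, 2.01 ± 0.12 or 4.04-fold (edgeR adjusted p = 6.452e-11). The offsets reduced it to 0.32 ± 0.08 (edgeR adjusted p = 0.0018).

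Hcst, which encodes the related adaptor DAP10, lies at a gap of 129 bases from Tyrobp in the RefSeq annotation of GRCm38.p6. It went from 3.86 ± 0.3731 CPM in cWT to 22.6 ± 3.487 in cKO, a log2 fold change of 2.54 ± 0.17, and of 0.82 with the offsets (edgeR adjusted p = 8.515e-05). Both adaptor genes were thus higher in cKO in both fits.

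Apoe was the most abundant of the 10 genes and ranked 15 among all tested genes by mean CPM (ENSMUSG00000002985, chr7:19696109-19699188, minus strand, 1408 bases). Its level was 2857, 2669 and 2638 CPM in cWT and 4793, 5627 and 5529 CPM in cKO. The genotypes did not overlap. The log2 fold change was 0.97 ± 0.11, or 1.95-fold (edgeR adjusted p = 3.980e-07), beside a median of 0.98 in its length class. With the offsets it was 0.25 ± 0.09 (edgeR adjusted p = 0.0163), so Apoe was higher in cKO in both fits. Whether the seed match shown above plays a part in this was not tested. Apoc1, the neighbouring apolipoprotein gene at a gap of 3584 bases, went from 0.604 ± 0.3356 to 7.19 ± 1.746 CPM and was named after its values were seen; its log2 fold change was 3.55 ± 0.36, and 1.81 with the offsets.

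Cd63 encodes a tetraspanin of late endosomes, lysosomes and exosomes (ENSMUSG00000025351, chr10:128900989-128912822, plus strand, 1109 bases). It stood at 250, 239 and 240 CPM in cWT and at 958, 945 and 831 CPM in cKO. The cWT libraries were close together and all cKO libraries were over 3 times as high. Cd63 rose by a log2 fold change of 1.91 ± 0.10, or 3.75-fold (edgeR adjusted p = 2.180e-11). With the offsets Cd63 had the highest value of the 10 genes, 0.55 ± 0.08 (edgeR adjusted p = 1.159e-06).

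Lgals3 encodes galectin-3, a lectin that binds galactosides and damaged lysosomes (ENSMUSG00000050335, chr14:47367751-47386160, plus strand, 1419 bases). It stood at 44.3, 35.6 and 35.6 CPM in cWT and at 79.7, 90.1 and 73 CPM in cKO. Both groups were narrow and did not overlap. Lgals3 rose by a log2 fold change of 1.07 ± 0.11 (edgeR adjusted p = 1.313e-07). The offsets ended this call, with 0.18 ± 0.11 (edgeR adjusted p = 0.171).

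Spp1 encodes osteopontin, a secreted phosphoprotein that binds integrins and CD44 (ENSMUSG00000029304, chr5:104435118-104441050, plus strand, 1507 bases). Its level was low, at 9.84, 12.3 and 9.51 CPM in cWT and 18.6, 23.6 and 17 CPM in cKO. The highest cWT library was below the lowest cKO library. The log2 fold change was 0.90 ± 0.16 (edgeR adjusted p = 5.605e-05), and -0.24 ± 0.15 with the offsets, where it did not pass (edgeR adjusted p = 0.175). The direction of Spp1 therefore depends on whether length and GC content enter the fit.

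Cst7 encodes cystatin F, an inhibitor of lysosomal cysteine proteases (ENSMUSG00000068129, chr2:150570415-150578944, plus strand, 986 bases). It was the least abundant of the 10 genes by CPM in cWT, at 5.96, 7.22 and 10.1, and stood at 17, 13.2 and 16.6 CPM in cKO. The cWT libraries were spread widely for their level, and the groups did not overlap. The log2 fold change was 1.01 ± 0.19 (edgeR adjusted p = 0.000111). With the offsets the sign turned, to -0.46 ± 0.19 (edgeR adjusted p = 0.042). Cst7 thus rose in CPM, but by less than the trend for its length and GC content. Its fold change was below the 1.57 of its length class.

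Clec7a encodes dectin-1, a C-type lectin receptor for beta-glucans (ENSMUSG00000079293, chr6:129461591-129472779, minus strand, typed as a polymorphic pseudogene in the annotation used). It stood at 72.1, 57.4 and 59.9 CPM in cWT and at 85.6, 81.3 and 75.2 CPM in cKO. The highest cWT library and the lowest cKO library were close, and this was the smallest difference of the 10 genes. On the log2 scale it came to 0.35 ± 0.11 (edgeR adjusted p = 0.00622). Without the second cWT library it was 0.28 with an edgeR adjusted p of 0.0559, which ends the call. Scaled by library size alone it was -0.04. With the offsets Clec7a was lower relative to the trend, by an amount that rests on the annotated length. The value was -1.52 ± 0.08 for the principal transcript of 707 bases (edgeR adjusted p = 8.722e-14). For the longest coding transcript of 2277 bases it was -0.30 (edgeR adjusted p = 0.00179).

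Lpl encodes lipoprotein lipase, which releases fatty acids from lipoproteins (ENSMUSG00000015568, chr8:68880491-68907448, plus strand, 4115 bases). It stood at 42.3, 41.3 and 40.2 CPM in cWT and at 18.1, 13.9 and 17.7 CPM in cKO. The cWT libraries agreed closely and every cKO library was less than 20 CPM. Lpl fell by 1.32 ± 0.12 on the log2 scale, or 2.49-fold lower (edgeR adjusted p = 2.567e-08), against a median of -0.40 in its length class. With the offsets Lpl remained lower, by -0.99 ± 0.12 (edgeR adjusted p = 1.468e-07).

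Itgax encodes the integrin chain CD11c, which pairs with CD18, the product of Itgb2 (ENSMUSG00000030789, chr7:128129547-128150657, plus strand, 30 exons, 4046 bases). It stood at 34.2, 32.7 and 31.4 CPM in cWT and at 15, 15.4 and 14 CPM in cKO. Both groups were tight and far apart. Itgax had a log2 fold change of -1.15 ± 0.12, or 2.21-fold lower (edgeR adjusted p = 9.208e-08), and -0.65 ± 0.11 with the offsets (edgeR adjusted p = 3.316e-05). CD11c is also a marker of dendritic cells. Of 5 tested dendritic cell markers 2, Cd209a and Clec9a, were lower and none higher. Cd209a went from 20.7 ± 2.483 to 6.67 ± 0.924 CPM, while Flt3, Zbtb46 and Ccr7 were not called. All 7 markers of the list, tested or not, summed to 31.7 to 36.6 CPM in cWT and 16.4 to 19.4 in cKO. The part of dendritic cells in the fall of Itgax was not tested. Its neighbour Itgam, the chain CD11b, lies 11034 bases away and fell by 0.99 on the log2 scale.

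**Figure D3:**
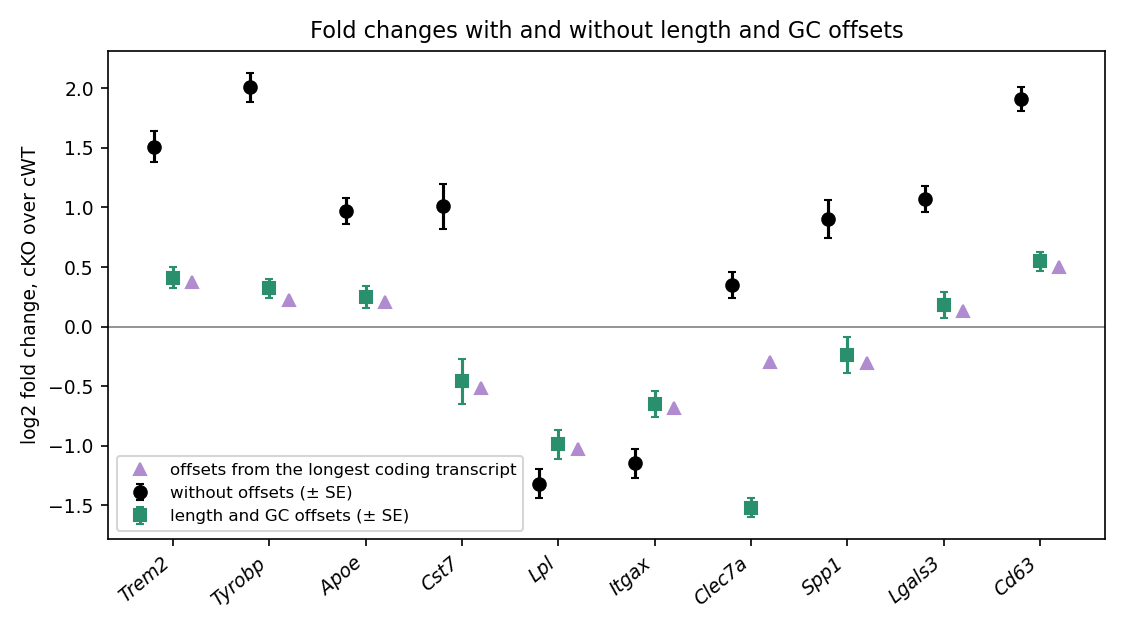
Log2 fold change (cKO over cWT) of each gene without offsets (black, ± SE), with length and GC offsets (green, ± SE) and with offsets from the longest coding transcript (purple). Trem2, Tyrobp, Apoe and Cd63 stay above 0 in all 3 and Lpl and Itgax below 0, while Cst7, Clec7a and Spp1 change side.

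Levels of different genes were compared as CPM per kilobase of transcript. In cWT, Apoe was highest (1933 ± 84.09 CPM per kb), followed by Tyrobp (1234 ± 156.8), Trem2 (1032 ± 56.04), Cd63 (219), Clec7a (89.3), Lgals3 (27.1) and Lpl (10). Itgax (8.09), Cst7 (7.86) and Spp1 (7) came last, and the ranges of Itgax and Cst7, and of Cst7 and Spp1, overlapped. In cKO, Tyrobp was highest (4978 ± 339.4 CPM per kb). Apoe (3776 ± 323.7) and Trem2 (2940 ± 522.1) followed with overlapping ranges. Cst7 (15.8) and Spp1 (13.1) overlapped, and so did Lpl (4.03) and Itgax (3.66), which were now last. The level of Clec7a per kilobase rests on its 707-base transcript. These levels carry no offsets, so the trend of fold change with length is not removed from the change of order between the genotypes. With the offsets the log2 fold changes of Tyrobp and Apoe were 0.32 ± 0.08 and 0.25 ± 0.09.

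Ratios of partner genes within a library do not depend on the scaling between libraries. Tyrobp to Trem2, adaptor to receptor, was 0.6728, 0.6247 and 0.5589 in cWT and 0.9508, 0.984 and 0.7423 in cKO. The cKO ratios were all above the cWT ratios, with a log2 difference of 0.52. The ratio of Apoe to Trem2 was lower in each cKO library (1.521, 2.118 and 1.459) than in each cWT library (2.415, 2.515 and 2.346), with a log2 difference of -0.53. Cd63 to Lgals3, a pair of lysosome-linked genes, went from 5.653, 6.705 and 6.744 to 12.02, 10.5 and 11.37, a log2 difference of 0.83. Itgax to its partner chain Itgb2 went from 0.0754, 0.06591 and 0.06046 to 0.03565, 0.03543 and 0.02826, a log2 difference of -1.02. For each of the 4 ratios the exact two-sided permutation test gave p = 0.1, the smallest that 3 against 3 libraries allow, so none could pass a threshold of 0.05. With the offsets the differences were -0.09, -0.16, 0.37 and -0.66 in the same order, so the adaptor-to-receptor ratio turned sign, and Itgax to Itgb2 had the largest difference of the 4 in both.

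**Figure D4:**
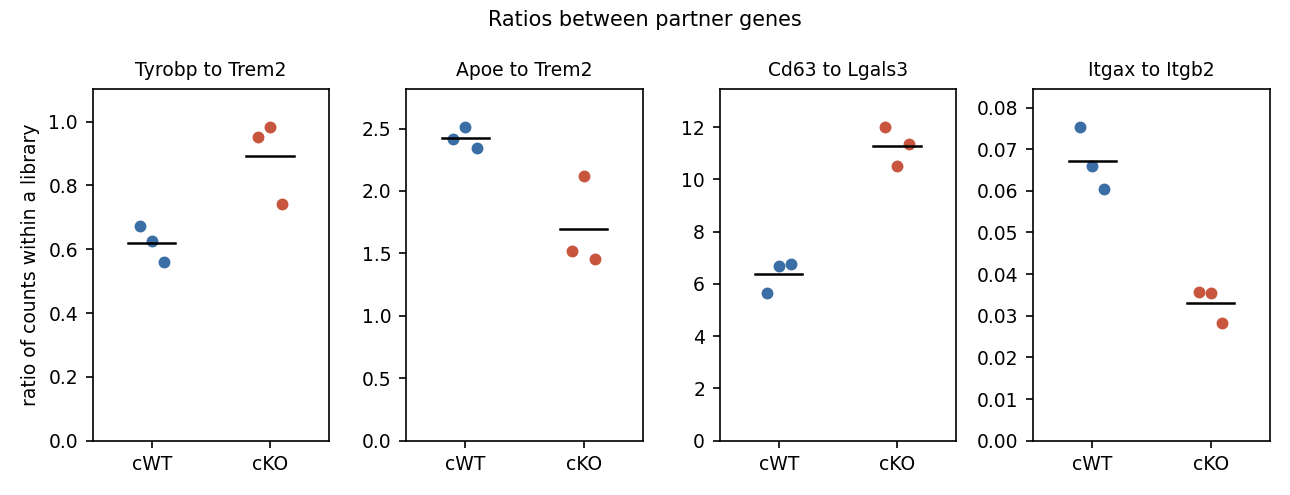
Ratio of counts within each library for 4 gene pairs, cWT in blue and cKO in red, with a bar at the mean of 3 libraries and each axis starting at 0. The genotypes do not overlap in any of the 4 panels.

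Around the receptor and its adaptor, the genes of the signalling route were mostly lower in cKO. Of 29 tested genes of TREM2 and DAP12 signalling, 5 were called higher and 17 lower, with a median log2 fold change of -0.45, against -0.02 over all genes. Over all tested genes 35.6% were called higher and 36.5% lower, and 29.1% and 27.5% with the offsets. The counts of this list and of those below have to be read beside these shares. Besides Hcst, the adaptor Lat2 (0.89 ± 0.10) and the docking protein Dok3 (0.74 ± 0.09) rose. The lowest p among decreases belonged to Nfatc1, a calcium-controlled transcription factor (139 ± 12.66 to 31.5 ± 2.168 CPM, -2.14 ± 0.11), the guanine nucleotide exchanger Sos1 (-1.77 ± 0.14) and the kinase Mtor (-1.57 ± 0.12). Syk and Plcg2, the kinase and the phospholipase next to DAP12, were named after their values were seen. Syk had a log2 fold change of -0.75 ± 0.09 and Plcg2 one of -0.97 ± 0.09. With the offsets the list had 6 genes higher and 12 lower with a median of -0.12. In that fit Syk turned to 0.27 (edgeR adjusted p = 0.00261), Mtor stood at 0.02 (edgeR adjusted p = 0.895), and Nfatc1 remained lower, at -1.45. Lat2 was then no longer called (0.08, edgeR adjusted p = 0.396), while Dok3 (0.31) and Sos1 (-0.56) kept their direction and call.

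Other receptors of the TREM family changed in both directions, with 2 of 5 called higher and 2 lower (median -0.02), beside 35.6% and 36.5% of all tested genes. Trem1, an activating receptor of myeloid cells, rose by 0.56 ± 0.13, and by 0.60 with the offsets. Trem3 went from 10.9 ± 0.7532 to 18.3 ± 4.627 CPM (0.75 ± 0.17), but its sign turned with the offsets (-0.72). Treml1 and Treml4 fell, both at under 5 CPM, by 2.47 and 0.86 on the log2 scale. With the offsets 1 of the 5 was higher and 4 were lower, with a median of -0.72.

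The proteases that release the TREM2 ectodomain and clear its stump were also split, with 3 of 9 higher and 3 lower (median -0.03). Over all tested genes the split was much the same, with 35.6% higher and 36.5% lower. The sheddases Adam17 (294 ± 15.14 to 183 ± 9.701 CPM, -0.68 ± 0.09) and Adam10 (448 ± 20.41 to 301 ± 26.42 CPM, -0.57 ± 0.10) were lower. Among the gamma-secretase subunits, Psenen (1.77 ± 0.10), Psen2 (0.71 ± 0.12) and Aph1a (0.30 ± 0.11) were higher and Ncstn was lower (-0.66 ± 0.10). With the offsets 4 were higher and 2 lower. Adam10 (-0.12, edgeR adjusted p = 0.172) and Psenen (0.13, edgeR adjusted p = 0.124) were then no longer called, while Ncstn was (-0.59).

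The MS4A genes, a cluster of membrane proteins linked in people to soluble TREM2, were higher in 5 of 6 tested cases and lower in none (median 1.26). Ms4a6d, at 114 ± 15.68 CPM in cWT and 316 ± 32.39 in cKO, rose by 1.47 ± 0.11. Ms4a6c (1.30 ± 0.12) and Ms4a6b (1.23 ± 0.12) rose by similar amounts. These near-copies can share reads, so the split between them is uncertain. With the offsets 4 were higher and 1 lower, with values of 0.26, 0.43 and 0.80 for Ms4a6d, Ms4a6c and Ms4a6b.

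Genes that receive, load or handle APOE particles moved both ways, with 14 of 28 higher and 13 lower (median 0.31; 12 and 7 with the offsets, median 0.22). The direction of this median rests on genes of low count: less the median of all genes it was 0.33, and -0.39 when only genes with at least 5 CPM in 3 libraries were tested. Among the decreases, Lrp1, the large APOE receptor, went from 1714 ± 111.6 to 196 ± 0.2853 CPM (-3.13 ± 0.11, and -1.01 with the offsets). Abca1, the lipid exporter that loads APOE, fell by 1.64 on the log2 scale without the offsets and was at -0.09 with them (edgeR adjusted p = 0.356). Among the increases, Angptl4, an inhibitor of lipoprotein lipase, had the smallest p and went from 3.86 ± 1.021 to 26.2 ± 5.459 CPM (2.76 ± 0.20, and 2.98 with the offsets). Npc2, the lysosomal cholesterol carrier (1.13 ± 0.10, and 1.35), and Ch25h, the cholesterol 25-hydroxylase (3.10 ± 0.27, and 2.03), rose in both fits. Lpl and its inhibitor Angptl4 thus changed in opposite directions in both fits.

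**Figure D5:**
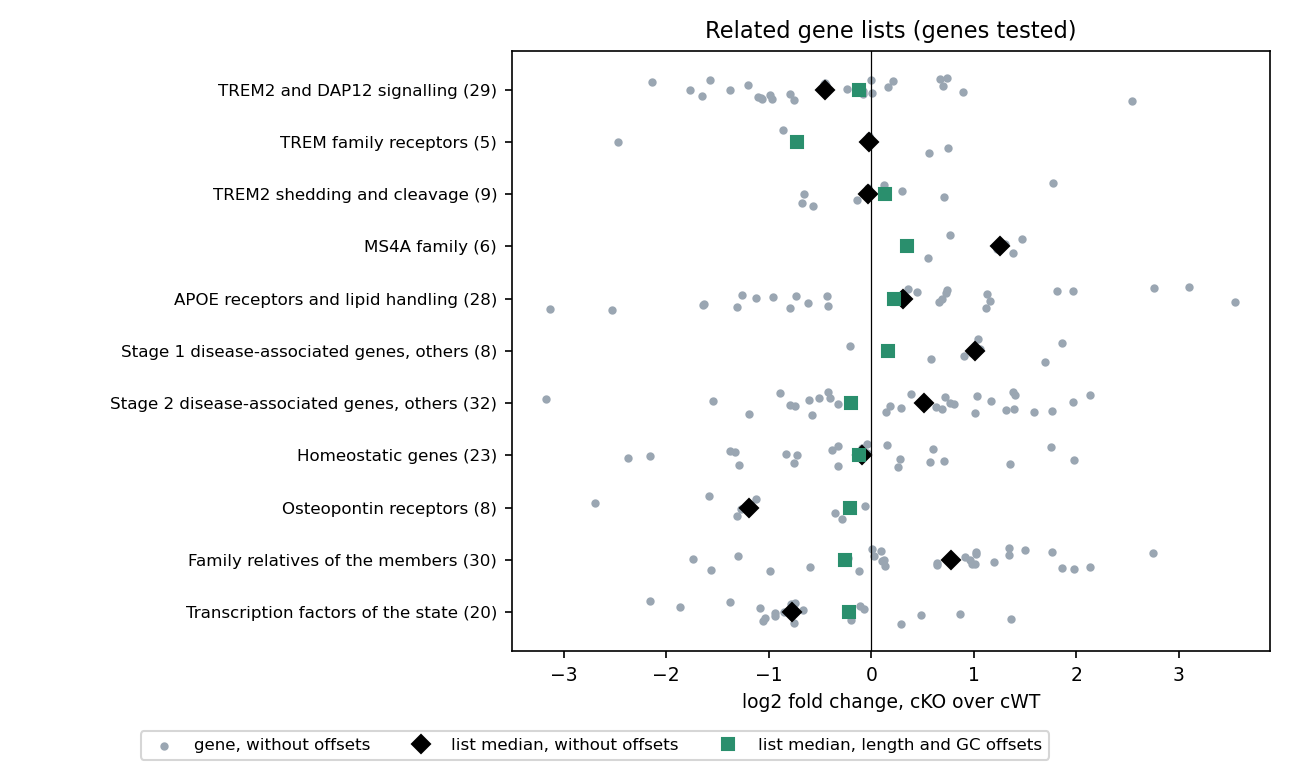
Log2 fold change (cKO over cWT) of each tested gene of 11 related lists (grey points, number tested in brackets), with the list median without offsets (black diamonds) and with length and GC offsets (green squares). The medians of 1.26 for the MS4A family and -1.19 for osteopontin receptors became 0.35 and -0.21 with the offsets.

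Other genes of the disease-associated state were compared with the 10. Of 8 further stage 1 genes, 7 were called higher and none lower (median 1.01), among them the protease inhibitor Cstb (34 ± 5.152 to 124 ± 15.14 CPM, 1.86 ± 0.12), the class I light chain B2m (1.69 ± 0.13) and the ferritin chain Fth1 (0.98 ± 0.10). With the offsets 4 were higher and none lower, and Cstb (0.01), B2m (-0.13) and Fth1 (0.09) were not called. Of 32 tested stage 2 genes, 16 were higher and 8 lower (median 0.51). The galectin Lgals1 (2.13 ± 0.11), Cd52 (1.76 ± 0.11) and the chemokine Ccl6 (1.59 ± 0.10) rose. The NADPH oxidase chain Cybb (-1.54 ± 0.12), the growth factor Csf1 (-1.19 ± 0.13) and the pyrophosphate transporter Ank (-0.79 ± 0.10) fell. With the offsets 11 were higher and 13 lower, with a median of -0.20; Lgals1 (0.63) and Ccl6 (0.43) remained higher and Cybb (-1.03), Csf1 (-0.56) and Ank (-0.49) lower, while Cd52 was no longer called (-0.14, edgeR adjusted p = 0.147).

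Homeostatic genes, which are lowered in disease-associated microglia, were higher in 6 and lower in 11 of 23 cases (median -0.09; 5 and 11 with the offsets, median -0.12). Cst3, a cystatin, stood at 17140 ± 2014 CPM in cWT and 67514 ± 7695 in cKO. Tmem119, the gene whose promoter drives the Cre, went from 425 ± 30.05 to 1084 ± 224.6 CPM (1.35 ± 0.13, and 1.31 with the offsets), and the crystallin Crybb1 rose by 1.75 ± 0.12 (0.58). The transcription factors Sall1 (837 ± 76.53 to 187 ± 18.62 CPM, -2.16 ± 0.11, and -1.24) and Mef2c (-1.38 ± 0.10, and -1.62) and the secreted protein Olfml3 (-2.37 ± 0.14, and -1.38) fell in both fits. P2ry12, the purinergic receptor, was named for its use as a marker and did not pass the threshold, at 0.26 ± 0.13 (edgeR adjusted p = 0.0884), but was called lower with the offsets, at -0.35 (edgeR adjusted p = 0.00152).

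Osteopontin receptors were lower in 6 of 8 cases and higher in none (median -1.19). The integrin chains Itga4 (42.5 ± 1.961 to 6.59 ± 1.072 CPM, -2.69 ± 0.14), Itga9 (-1.58 ± 0.10) and Itgb3 (-1.27 ± 0.10) had the smallest p. These transcripts are long, with a list median of 5699 bases. With the offsets 2 were higher and 5 lower, at a median of -0.21, and Itga4 (-1.34), Itga9 (-0.28) and Itgb3 (-0.21) remained lower.

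Promoters, from 250 bases before to 50 after each annotated start in RefSeq (GRCm38.p6), were found for 8 of the 10 genes, 12 promoters in all. They were searched on both strands for the sites of factors known in macrophages. The AP-1 letters TGACTCA or TGAGTCA stood in 5.2% of 32817 promoters and in that of Itgax, 56 bases before the start. The PU.1 letters GAGGAAGT stood in 3.2% of promoters and in that of Spp1, 113 bases before the start. The E-box CACGTG (7.15% of promoters) and the C/EBP letters TTGCGCAA or TTGCATAA (0.923%) were in none of the 12. The promoters with a match are printed, since they belong to a gene that was lower in cKO and to one that was higher before the offsets, with the match in capitals; Itgax lies at chr7:128129300-128129599 and Spp1 at chr5:104434861-104435160, both on the plus strand.
Itgax promoter: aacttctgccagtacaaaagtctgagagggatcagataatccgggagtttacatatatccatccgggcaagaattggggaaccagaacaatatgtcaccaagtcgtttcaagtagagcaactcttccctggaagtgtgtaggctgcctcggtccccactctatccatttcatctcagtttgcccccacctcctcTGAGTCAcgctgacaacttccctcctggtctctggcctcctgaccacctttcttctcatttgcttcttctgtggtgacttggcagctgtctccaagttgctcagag
Spp1 promoter: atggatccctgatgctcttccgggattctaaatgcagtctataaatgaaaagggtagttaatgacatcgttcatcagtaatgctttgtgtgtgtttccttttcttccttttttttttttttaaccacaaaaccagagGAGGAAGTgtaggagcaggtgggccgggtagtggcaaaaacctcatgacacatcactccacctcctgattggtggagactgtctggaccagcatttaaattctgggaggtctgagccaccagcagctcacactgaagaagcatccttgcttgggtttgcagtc

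The libraries held 12068703 to 15212800 counts in cKO and 16503825 to 17482042 in cWT, so at equal abundance a gene had fewer counts in cKO. The authors' deposited table lists Mir137 at 0, so its loss could not be examined in these libraries. All 10 microglial markers were measured, with summed levels of 36958 to 39344 CPM in cWT and 41030 to 47254 in cKO. Markers of other cells moved with the genotype: 5 of 7 neutrophil markers were higher and 1 lower (4334 to 4902 CPM summed in cWT and 11468 to 15983 in cKO), and 2 were higher and 3 lower with the offsets. Of 7 monocyte markers 5 were higher and 1 lower (530 to 619 and 1059 to 1365 CPM), but with the offsets none was higher and 3 were lower. All 6 markers of choroid plexus and ependyma were higher in both fits (2140 to 2411 and 10408 to 14047 CPM). Border-associated macrophage markers summed to 819 to 1031 CPM in cWT and 819 to 1011 in cKO, with 5 of 8 higher and 1 lower, and 3 and 2 with the offsets. None of these markers was at 0 in all 6 libraries. Of the single markers, Ttr of the choroid plexus had the highest level, at 2073 to 2328 CPM in cWT and 10241 to 13868 in cKO, and S100a9 of neutrophils stood at 1361 to 1683 and 5017 to 7560 CPM, with a log2 fold change of -0.04 in the offset fit. Astrocyte markers (2 of 7 higher, none lower; 5 and none with the offsets) summed to 389 to 403 and 407 to 639 CPM, and oligodendrocyte markers (6 of 8 higher, 1 lower, in both fits) to 284 to 292 and 311 to 466 CPM. Endothelial and mural markers (3 of 8 higher, 5 lower; 1 and 4 with the offsets) summed to 1123 to 1372 and 1554 to 1858 CPM. Lymphocyte markers summed to 26.5 to 27.1 CPM in cWT and 46.6 to 57.3 in cKO, and fibroblast markers to 22.3 to 26.4 and 17.4 to 20.9. Of 6 tested lymphocyte markers only Cd79b was called higher (17.3 ± 0.9394 to 40.2 ± 5.257 CPM), and none lower. With the offsets none of the 6 was higher and 2 were lower, and Cd79b had a log2 fold change of 0.04. Neuron markers summed to 3.3 to 4.25 and 3.41 to 7.7 CPM, and erythroid markers to 113 to 163 and 102 to 212. Among the erythroid markers, Hbb-bs stood at 23.9, 23.4 and 6.22 CPM in cWT and at 0 in every cKO library. Hbb-bt was present in both groups (10.6 to 16.6 and 8.88 to 27.5 CPM). The cause of this difference in Hbb-bs was not tested. Apoe, Tyrobp, Lgals3 and Cd63 are also expressed by some of these cell types, and the part of such cells in the values of the 10 genes was not tested.

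The genes with patterns most like those of Trem2, Tyrobp and Apoe were found by Pearson correlation of log2 CPM over the 6 libraries, among 10560 genes. For Trem2 they were Ccdc106, Tmem222 and Mob2 (r from 0.9992 to 0.9997). For Tyrobp they were Lyrm4, Fcgr2b and Hint2 (r of 0.9997 to 0.9998), and for Apoe Pmvk, Ube2g2 and Cd151 (r of 0.9980 to 0.9999). Over 6 libraries in 2 groups such values are common: 3253 genes had r above 0.9 with Trem2, 3315 with Tyrobp and 3245 with Apoe. The authors' deposited table gave log2 fold changes for the 10 genes from -1.31 for Lpl to 2.02 for Tyrobp, each within 0.01 of the values above.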

How the data were processed

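RNA sequencing of total RNA from isolated microglia gave 6 libraries, grouped by genotype from the sample titles. The authors deposited estimated counts per gene symbol, not scaled between libraries; 5.5% to 5.85% of values per library were not whole and all were rounded. The submitters' processing notes list STAR 2.7.9a, RSEM, DESeq2 and GRCm38 (mm10) without their roles; the annotation and whether counting used strand were not given in the sources used here. Of the authors' deposited comparison, the base mean (a scaled signal), log2 fold change with its SE, Wald score, p-value and adjusted p-value are columns per the file headers.

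Genes were tested, two-sided, with edgeR 4.0.16 (R 4.3.3; quasi-likelihood, TMM, robust, genotype only, filterByExpr minimum count 10). Of 17459 genes, 13490 were tested and 3969 were not. Benjamini-Hochberg adjustment ran over all genes tested, with calls at adjusted p under 0.05. SEs were derived from the test statistic. The offset fit used natural splines with 6 degrees of freedom on log length and GC content of the principal GENCODE transcript (12983 genes, 96.2%). Offset values of a gene hold only as far as its annotated length does. The procedure was tested on simulated data. The only trend simulated was a straight line on log length, without one on GC content. That test therefore does not show how far the offset values of the 10 genes hold. Replicates differed by more than counting noise (chi-square per degree of freedom 3.82 to 18.6), so none was taken as a duplicate.

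The 10 genes, the 11 gene lists and the marker lists were chosen with earlier results of these data known. All 10 genes were named, and from each list the 3 called genes with the smallest p in each direction. Of these, 1 is not reported here. Lists are described by counts and medians. Alternatives were DESeq2 1.42.0, limma-voom (limma 3.58.1), other scalings and filters, offsets, a replicate block and leaving out each library. Offsets from the longest coding transcript were added after seeing the data.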

Additional observations from a re-analysis of the deposited data

How the results depend on the processing

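Over 17 alternatives, 160 of the 170 log2 fold changes of the 10 genes kept direction and side of the threshold, among them all of Trem2 (0.37 to 1.64), Tyrobp (0.22 to 2.11), Apoe (0.21 to 1.03), Cd63 (0.50 to 1.99), Lpl (-1.71 to -0.99) and Itgax (-1.54 to -0.65). With offsets from the principal transcript, or from the longest coding transcript, 4 genes were higher and 4 lower; Cst7 turned to -0.46 and -0.52, Clec7a to -1.52 and -0.30 and Spp1 to -0.24 and -0.31, and Lgals3 lost its call at 0.18 and 0.13. Library size alone gave Clec7a -0.04 (edgeR adjusted p = 0.736), moved the median of all genes from -0.02 to -0.42 and made 33.07% of all calls increases (3331 higher, 6742 lower), against 49.37%. Leaving out 1 library gave 7 to 8 genes higher and 2 lower, 7 without cWT replicate 2, where Clec7a stood at 0.28.

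List medians less that of all genes became, with the 2 kinds of offsets in that order, -0.12 and -0.14 for TREM2 signalling, -0.71 and -0.76 for the TREM family, 0.36 and 0.32 for MS4A, 0.16 and 0.13 for stage 1, -0.20 and 0.06 for stage 2, -0.21 and -0.23 for osteopontin receptors, -0.26 and -0.06 for family relatives and -0.22 and -0.24 for transcription factors. Shedding (0.14) and APOE handling (0.22) moved with the first kind and homeostatic genes (-0.18) with the second. A filter of 5 CPM in 3 libraries gave 0.60 for the TREM family, -0.39 for APOE handling and 1.02 for family relatives. Leaving out 1 library gave 0.25 to 0.38 for APOE handling (lowest without cWT replicate 1), 0.96 to 1.04 for stage 1, -0.21 to -0.01 for homeostatic genes and -0.80 to -0.66 for transcription factors; without cKO replicate 3 these last lists stood at 0.96, -0.21 and -0.66. The log2 ratio differences became -0.09 and -0.15 for Tyrobp to Trem2, -0.16 and -0.16 for Apoe to Trem2, 0.37 and 0.37 for Cd63 to Lgals3 and -0.66 and -0.61 for Itgax to Itgb2. The cause of these shifts was not tested beyond the offsets themselves.

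Correlations of deviations were 0.148, 0.0387 and 0.119 for equal replicate numbers and ran from -0.162 to 0.0509 for unequal numbers. For cWT replicate 2 the highest was with cKO replicate 3 (0.0509). These values do not settle whether the replicate numbers pair the samples. A fit with the replicate block called 8 genes higher and 2 lower, and 4883 and 5028 over all genes. At 5.96 to 23.6 CPM, Cst7 and Spp1 had the fewest counts over the 6 libraries together and the largest SEs. In the cKO libraries alone, Itgax had 154 to 184 counts and Lpl 157 to 233, beside 149 to 219 for Cst7 and 191 to 267 for Spp1.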

Other observations

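Relatives of the 10 genes by family (30 tested) were higher in 16 cases and lower in 4, with a median log2 fold change of 0.78, against -0.02 over all genes; with the offsets 6 were higher and 13 lower, at -0.26. Clec4d, a C-type lectin receptor of myeloid cells like the product of Clec7a, went from 7.53 ± 0.5283 to 50.7 ± 8.488 CPM (SD, n = 3), a log2 fold change of 2.75 ± 0.14, and of 1.35 with the offsets. The galectin Lgals1 and the protease inhibitor Cstb, relatives of Lgals3 and Cst7, were described with the disease-associated genes. The integrin chains Itgam (1819 ± 54.68 to 916 ± 28.2 CPM) and Itgal (53.6 ± 4.272 to 18.2 ± 3.714 CPM, -1.56 ± 0.14), relatives of Itgax, fell, by 0.34 and 0.63 on the log2 scale with the offsets. Itgb2, their shared partner chain, stood at 489 ± 33.32 and 450 ± 39.09 CPM and did not pass the threshold (-0.12 ± 0.10, edgeR adjusted p = 0.295). Clec9a, a lectin of dendritic cells, fell from 0.892 ± 0.2709 to 0.269 ± 0.1188 CPM.

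Transcription factors named as regulators of the disease-associated state were lower in 12 of 20 cases and higher in 4 (median -0.77; 10 and 3 with the offsets, median -0.22). The increases were Cebpb (209 ± 10.78 to 382 ± 31.75 CPM, 0.87 ± 0.10, and 0.38 with the offsets), Cebpa (0.48 ± 0.10, and 0.79) and Tfec, a relative of MITF (1.36 ± 0.27, and 0.50 with the offsets, edgeR adjusted p = 0.0788), among others. Ppard, a lipid-activated nuclear receptor, went from 63 ± 2.086 to 17.1 ± 3.158 CPM (-1.87 ± 0.13, and -1.34 with the offsets). Sall1 and Mef2c, in this list too, were described with the homeostatic genes.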
